A study of Mus musculus with 10 samples.

Results

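The miR-143 and miR-145a cluster is a pair of neighbouring miRNA hairpins, and its members are their 4 mature arms, listed in the tables as mmu-miR-143-3p, mmu-miR-143-5p, mmu-miR-145a-5p and mmu-miR-145a-3p. They were chosen by name from the deposited tables and are 4 of 1139 rows. All 4 passed the filter on low counts, which kept 457 miRNAs. Male C57Bl6N mice had undergone transverse aortic constriction (TAC), an operation that narrows the aortic arch so that the left ventricle pumps against a higher pressure, and small RNA of their hearts was sequenced 1 week later. There were 5 libraries of CITED4 knockout hearts and 5 of floxed controls, whose target gene is flanked by recombination sites but intact. The operation was common to both groups, so a response to it was not analysed here. The labels give neither the age of the animals nor the Cre driver, so the cells that lost the gene are not known here. The comparison asks whether loss of CITED4 goes with a different level of the cluster's miRNAs in the loaded heart.

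Both hairpins are made from 1 long primary transcript. In adult tissues the cluster is best known from smooth muscle, where serum response factor and its coactivator myocardin drive its transcription, and in a heart it marks the muscle of vessel walls and the pericytes around capillaries. miR-145 represses the transcription factors Klf4 and Klf5 and miR-143 represses Elk1, and loss of the cluster shifts smooth muscle cells from a contractile towards a synthetic state. From each hairpin the cell can load either arm into Argonaute. The more abundant arm is usually called the guide and the other the passenger. CITED4 has no DNA-binding domain of its own and acts on transcription through the coactivators CBP and p300.

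The libraries held between 7526091 and 18369483 counts. The groups' tissue label was set beside miRNAs of muscle. The 6 cardiomyocyte markers summed to between 220847 and 504570 CPM (counts per 1e6 of the TMM-scaled library total) in every library. Most of that sum was miR-1a-3p, a muscle miRNA (351241 and 299919 CPM in control and knockout means). The sum cannot by itself tell heart from other muscle. In edgeR's quasi-likelihood test, 0 of 457 miRNAs passed at an adjusted p of 0.05 (0%), and 29 (6.35%) had an unadjusted p under 0.05. DESeq2 also called 0, with 45 of 1105 at an unadjusted p under 0.05, and limma on the deposited normalized values called 0, with 22 of 457. Of the cluster's members, 0 of 4 passed and 0 of 4 had an unadjusted p under 0.05. The mean was lower in knockouts for 2 of the 4, where 46.8% of the tested miRNAs had a lower mean.

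The cluster lies on the minus strand of chromosome 18 (GRCm38). The miR-143 hairpin spans 61649196 to 61649258 and the miR-145a hairpin 61647825 to 61647894, with 1301 bases between them. Both lie inside the RefSeq span of Carmn (61645878 to 61665538), the long noncoding RNA gene that hosts the cluster. In GENCODE release M21 the Carmn gene ends 366 bases upstream of the miR-143 hairpin, and neither hairpin overlaps one of its exons. No other row of the count table had the same counts as a member in every library.

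miR-143-3p, the guide of its hairpin, was by far the most abundant member and stood at almost the same level in both groups. In controls it was at 27361, 31317, 32302, 30127 and 33183 CPM in replicates 1 to 5. In knockouts it was at 31399, 32415, 25640, 31175 and 30905 CPM. Of the knockout libraries only replicate 3 was below the control mean, the lowest of the 10 libraries, and the groups overlapped. Group means were 30858 ± 2262 and 30307 ± 2671 CPM (SD, n = 5 each). The log2 fold change was -0.03 ± 0.13 (SE), with a 95% interval from -0.31 to 0.26 (0.807 to 1.20-fold), and edgeR's test gave an adjusted p of 0.93. Its sign was positive, at 0.10 and 0.010, with library totals only and without a low-count filter.

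miR-143-5p, the passenger of the same hairpin, was rare, with 94 to 211 counts in a library. Controls were at 8.84, 9.49, 16.4, 11.6 and 13.2 CPM in replicates 1 to 5, and knockouts at 12.04, 15.9, 8.21, 17.0 and 11.6 CPM. The highest and the lowest of the 10 values were both knockouts, in replicates 4 and 3, so the groups overlapped fully. The log2 fold change was 0.12 ± 0.24 (SE), with a 95% interval from -0.40 to 0.64 (edgeR adjusted p = 0.82).

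miR-145a-5p, the guide of the second hairpin and the miRNA that represses Klf4 and Klf5, had the largest difference of the 4 in edgeR's test. In controls it was at 464, 423, 747, 557 and 487 CPM in replicates 1 to 5. In knockouts it was at 434, 450, 484, 499.7 and 395 CPM. Each of the 5 knockouts fell short of the control mean of 536 ± 128 CPM, and their own mean was 453 ± 41.4 CPM. The groups still overlapped, since control replicate 2 was below 4 of the knockouts, and the control mean was raised by replicate 3. The log2 fold change was -0.24 ± 0.16 (SE), with a 95% interval from -0.59 to 0.10 (0.666 to 1.07-fold), and edgeR's test gave an adjusted p of 0.64. Without control replicate 3 it was -0.06 (adjusted p = 0.86).

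miR-145a-3p, the other arm of that hairpin, was about as spread in controls as its partner. Controls were at 210.2, 303, 260.2, 282 and 163 CPM in replicates 1 to 5, and knockouts at 270.1, 279.5, 299 and 223 CPM in replicates 1 to 4 and 236 CPM in replicate 5. The highest and the lowest value were both controls, so the knockouts lay within the control range. Its log2 fold change was 0.10 ± 0.17 (SE), with a 95% interval from -0.27 to 0.47 (edgeR adjusted p = 0.79). In none of the 4 members did the groups separate, against 3 of the 457 tested miRNAs (0.656%) whose groups did not overlap. In bulk heart RNA, fewer cells of a type and less miRNA per cell cannot be told apart.

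**Figure D1:**
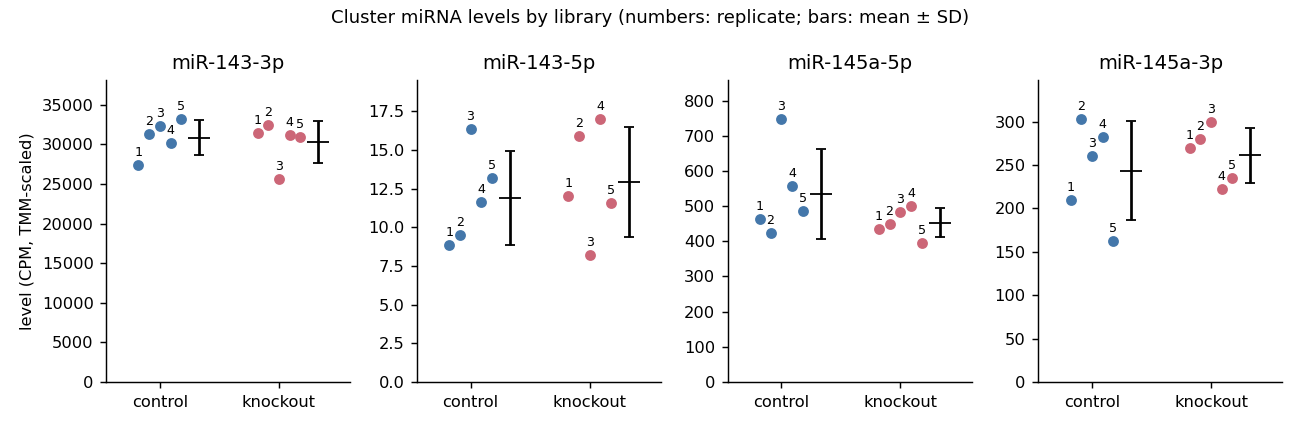
Level of each cluster miRNA (y axes: CPM, from 0) in the 5 control and 5 knockout libraries, numbered by replicate, with black bars for mean ± SD. miR-143-3p lies between 25640 and 33183 CPM in all 10 libraries, while the control spread of miR-145a-5p is set by replicate 3 at 747 CPM.

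The 2 hairpins differed widely in how their arms shared the reads. Over all libraries the cluster's counts were 97.6% miR-143-3p, 1.546% miR-145a-5p, 0.821% miR-145a-3p and 0.0388% miR-143-5p. miR-143 was close to one-sided, with 2515 reads of the 3p arm for each read of the 5p arm. miR-145a gave 1.88 reads of the 5p arm for each read of the 3p arm. Among 176 hairpins with both arms named and at least 1000 counts in all, miR-143 ranked 9 and miR-145a 164 from the most one-sided, and the median ratio was 32.6. These are ratios of counts, which need not equal ratios of molecules. Neither arm ratio was chosen for its difference between the groups.

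The arm balance of miR-143 was similar in both groups. miR-143-5p made up 0.0383% ± 0.0080 of the hairpin's counts in controls and 0.0423% ± 0.0092 in knockouts (SD, n = 5). The log2 arm ratio was 11.37 ± 0.29 and 11.23 ± 0.31 (exact two-sided permutation test, p = 0.52, adjusted p = 0.70 over 6 within-library measures). With 5 libraries against 5 the smallest p of this test is 0.0079.

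For miR-145a the SD of the log2 arm ratio was smaller in knockouts than in controls, a difference in spread that was not tested. miR-145a-3p took 31.2%, 41.8%, 25.8%, 33.6% and 25.0% of the hairpin's counts in control replicates 1 to 5. It took 38.34%, 38.32%, 38.20% and 37.4% in knockout replicates 1, 2, 3 and 5, and 30.8% in replicate 4. The controls differed from each other by more than counting error, since the exact binomial 95% intervals were 40.7 to 42.8% in replicate 2 and 23.9 to 26.2% in replicate 5. So did the knockouts, with 37.3 to 39.4% in knockout replicate 1 and 29.8 to 31.9% in knockout replicate 4. Such intervals cover counting error only. The log2 ratio of 5p to 3p was 1.14 ± 0.45 in controls and 0.80 ± 0.21 in knockouts, a difference of -0.35 (exact two-sided permutation test, p = 0.13, adjusted p = 0.67). With 1 library left out the difference ran from -0.51 to -0.24. It was -0.51 without control replicate 2 (exact two-sided permutation test, p = 0.048, adjusted p = 0.29) and -0.44 without knockout replicate 4 (p = 0.079, adjusted p = 0.48).

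**Figure D2:**
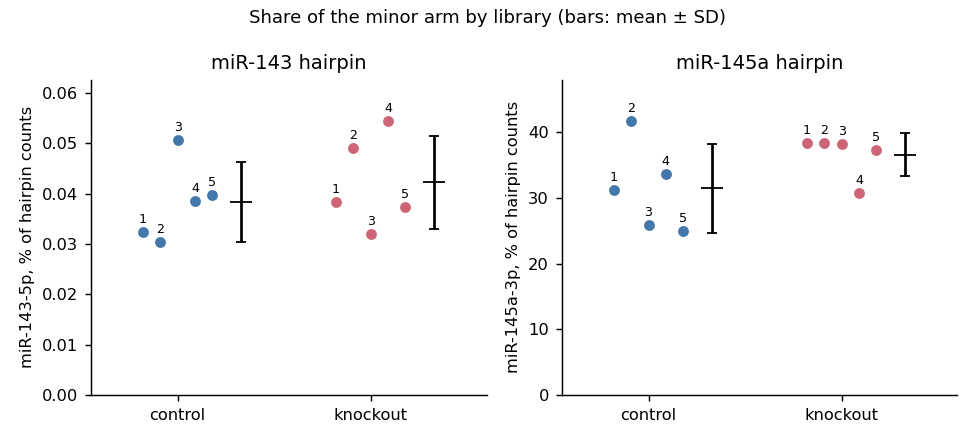
Minor arm of each hairpin as a percentage of the hairpin's counts (y axes, from 0) in the 5 control and 5 knockout libraries, numbered by replicate, with black bars for mean ± SD. The miR-143 passenger stays at 0.0303% to 0.0545%, whereas miR-145a-3p ranges from 25.0% to 41.8% in controls and 4 of the 5 knockouts sit at 37.4% to 38.3%.

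The 2 guides were also compared with each other and with miR-126a-3p, an endothelial miRNA, within each library, where no scaling is needed. miR-143-3p had 58.7 times the counts of miR-145a-5p in controls and 67.0 times in knockouts (means of log2 ratios, 5.87 ± 0.30 and 6.07 ± 0.22, exact two-sided permutation test, p = 0.27, adjusted p = 0.67). The range over the 10 libraries was 43.2 in control replicate 3 to 78.2 in knockout replicate 5. Relative to miR-126a-3p, miR-143-3p was at a log2 ratio of 0.44 ± 0.18 in controls and 0.55 ± 0.17 in knockouts (exact permutation p = 0.33, adjusted p = 0.67). miR-145a-5p was at -5.44 ± 0.43 and -5.51 ± 0.15 on the same scale (exact permutation p = 0.87, adjusted p = 0.87), and this difference turned positive, to 0.11, without control replicate 3. The whole cluster made up 3.06% ± 0.50 of a control library and 3.27% ± 0.61 of a knockout library (exact permutation p = 0.59, adjusted p = 0.70). Of the 6 measures, 0 passed.

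miR-143-3p varied little between libraries for its abundance. It ranked 7 of 457 by mean level and between 5 and 9 among all rows in each library. The SD of its log2 CPM between libraries of a group was 0.12, the 6th smallest of the 457 tested miRNAs, whose median was 0.39. Of the 10 most abundant miRNAs only miR-143-3p and miR-126a-3p were under 0.30, with miR-126a-3p at 0.17. Just past that cut miR-16-5p, which ranked 11, was at 0.13. The less abundant miR-24-3p, at 0.116, varied less than miR-143-3p, at 0.122. miR-1a-3p, the muscle miRNA that ranked first, was at 0.45 and miR-21a-5p at 0.67. The rank depends on the scaling: miR-143-3p was 13 of 457 in the deposited normalized values and 77 of 457, with an SD of 0.26, with library totals only.

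The other members were closer to the middle. SDs were 0.24 for miR-145a-5p (rank 102 from the smallest), 0.29 for miR-145a-3p (138) and 0.39 for miR-143-5p (216). Counting error was far below these values for the guides, at 0.0025 for miR-143-3p and 0.020 for miR-145a-5p on the log2 scale. For miR-143-5p it was 0.13, and the spread between libraries was 3.06 times as large.

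**Figure D3:**
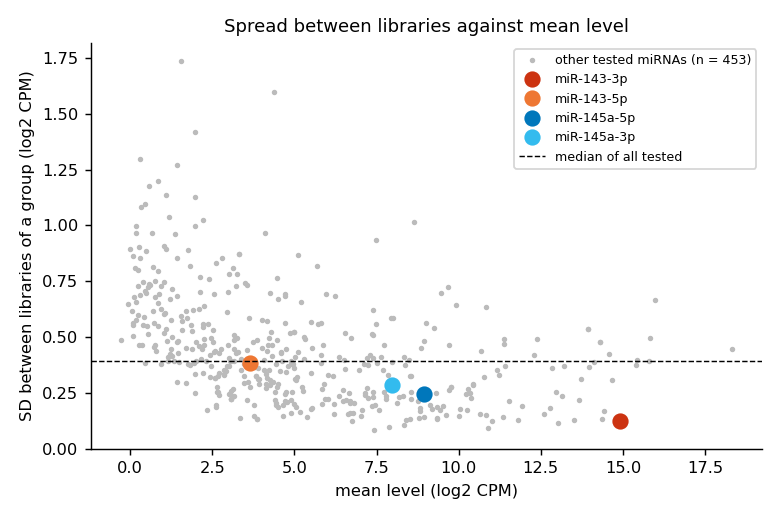
SD between libraries of a group (y axis, log2 CPM) against mean level (x axis, log2 CPM) for the 457 tested miRNAs, with the 4 cluster members in colour and the median SD of 0.39 as a dashed line. miR-143-3p lies at the lower edge among the abundant miRNAs, at 0.12, and miR-143-5p lies near the median.

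Arms of 1 hairpin were then followed across the 10 libraries. Values of 1 library share its depth and composition. The 2 arms of miR-143 had a Pearson r of 0.77 (permutation p = 0.0056, adjusted p = 0.033 over 6 pairs) and a Spearman rho of 0.70 (permutation p = 0.030, adjusted p = 0.18). Within groups, on deviations from the group means, r was 0.80 (permutation p = 0.0025). Both arms were low in knockout replicate 3 and control replicate 1, the 2 libraries farthest from the median of miR-143-3p. Without these 2 libraries r was 0.42 (permutation p = 0.30). Leaving out the extremes of 1 arm narrows its range, which by itself can lower r. Whether the relation rests on these libraries was therefore not settled. The 2 arms of miR-145a had an r of 0.02 (permutation p = 0.96, adjusted p = 0.96) and a rho of -0.19 (permutation p = 0.61, adjusted p = 0.73). Without control replicate 3 and knockout replicate 5 their r was -0.19 (permutation p = 0.64).

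The guides of the 2 hairpins, which come from the same primary transcript, had an r of 0.12 (permutation p = 0.73, adjusted p = 0.88) and a rho of 0.04 (permutation p = 0.92, adjusted p = 0.92). Without the 2 libraries farthest from the median r was 0.17 (permutation p = 0.69). The other 3 pairs had r of -0.26, 0.42 and -0.22, rho of -0.24, 0.45 and -0.36, and adjusted permutation p of at least 0.58 for either measure. Without TMM factors, with library totals only, all 6 correlations were positive, from 0.28 to 0.82.

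**Figure D4:**
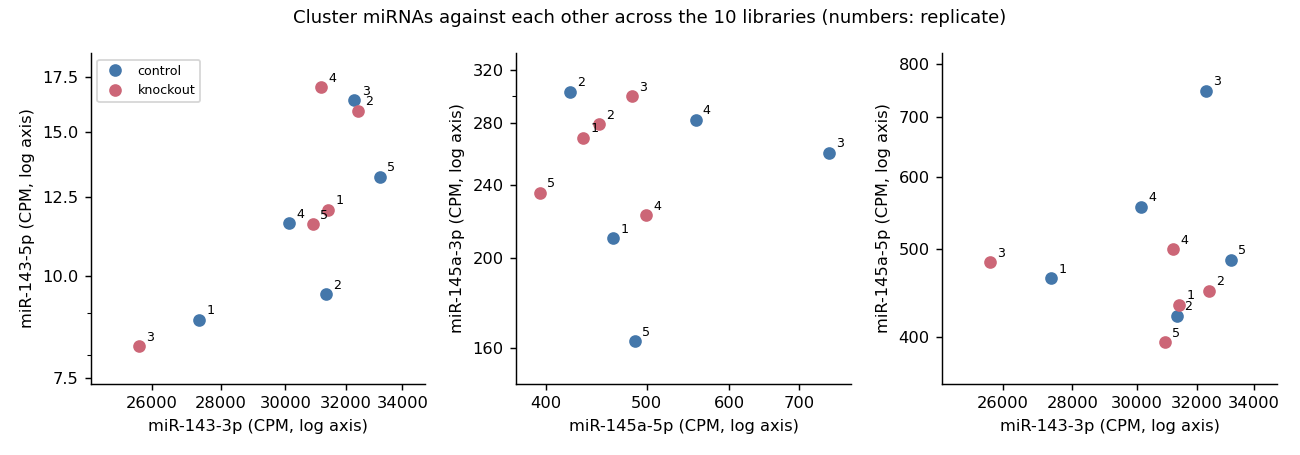
Cluster miRNAs against each other in the 10 libraries (both axes: CPM on a log scale, points numbered by replicate, blue for control and red for knockout). The arms of miR-143 rise together (r of 0.77), with knockout replicate 3 and control replicate 1 at the low end. The arms of miR-145a (r of 0.02) and the 2 guides (r of 0.12) show no such relation.

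Among the other 453 tested miRNAs, those whose level followed each guide most closely over the 10 libraries were listed by Pearson r, as a description. Closest to miR-143-3p were miR-24-2-5p (0.89), let-7i-3p (0.87), miR-190a-3p (0.86), miR-664-3p (0.82) and miR-500-3p (0.69). Without knockout replicate 3 and control replicate 1 these values were 0.63 to 0.83. miR-24-2-5p, the passenger of a miR-24 hairpin, had mean levels of 803 ± 72.4 CPM (control) and 751 ± 83.7 CPM (knockout), whereas miR-190a-3p was rare, with a control mean of 1.26 ± 0.73 CPM.

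Closest to miR-145a-5p were miR-29b-2-5p (0.89), miR-22-3p (0.89), miR-101a-3p (0.88), miR-1a-1-5p (0.85) and miR-19a-3p (0.85), and none of them was on the list of miR-143-3p. All 5 had a lower mean in knockouts, as did 46.8% of all tested miRNAs, and 0 of 5 passed (edgeR adjusted p of 0.64 to 0.73). They were picked by r over both groups together, so a direction shared with miR-145a-5p is partly built in. Without control replicate 3 and knockout replicate 5, r was 0.58 to 0.80 for the first 4 and 0.17 for miR-19a-3p, which was at 56.2 CPM in control replicate 3. Mature sequences are shown from RefSeq (GRCm38.p6), 5′ to 3′ with the seed (bases 2 to 8) in capitals, for miR-126a-3p, against which the guides were measured, and for the pair of miRNAs most like each guide, to show whether the like miRNAs share a seed.

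miR-126a-3p: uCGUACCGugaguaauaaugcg
miR-24-2-5p: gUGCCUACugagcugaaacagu
let-7i-3p: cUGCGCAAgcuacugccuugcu
miR-29b-2-5p: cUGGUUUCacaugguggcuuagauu
miR-22-3p: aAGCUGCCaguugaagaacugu

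No seed was shared among these, nor among all 11 miRNAs made up of miR-126a-3p and the 10 most alike. The sequences of the members themselves were not used here.

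miRNAs known to act in smooth muscle outside the cluster were read as a list of 15. It overlapped the marker lists below, sharing miR-21a-5p with fibroblast, miR-133a-3p with cardiomyocyte, miR-10a-5p with endothelial and miR-146a-5p with leukocyte markers. Which cells of the heart these 15 came from was not tested. In this list 0 of 15 passed in either direction. By edgeR's test 1 of 15, miR-133a-3p, had an unadjusted p under 0.05, beside 6.35% of all tested miRNAs. Of the 15, 6 had a higher and 9 a lower mean in knockouts, where 46.8% of all tested miRNAs had a lower mean. The list's median log2 fold change was -0.06, beside 0.03 over all miRNAs tested. Its 3 most abundant members were miR-21a-5p, which promotes smooth muscle growth, miR-26a-5p and miR-24-3p. miR-21a-5p was at 52572 ± 28415 and 77287 ± 25544 CPM in controls and knockouts (log2 fold change 0.56 ± 0.35, SE). miR-26a-5p was at 29148 ± 5491 and 23252 ± 5309 CPM (-0.33 ± 0.19), and miR-24-3p at 8481 ± 771 and 8219.9 ± 576 CPM (-0.05 ± 0.12). The edgeR adjusted p of these 3 was 0.64, 0.64 and 0.86. miR-221-3p and miR-222-3p, which promote growth of smooth muscle cells, had log2 fold changes of 0.17 ± 0.15 and -0.06 ± 0.17.

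Marker lists for the remaining cell types of a heart were set beside the cluster, whose 4 members summed to 28045 to 33846 CPM in controls and 26431 to 33161 CPM in knockouts. Summed cardiomyocyte markers ran from 242925 to 504570 and from 220847 to 387114 CPM, with 0 of 6 passed and a median log2 fold change of -0.40. The 5 endothelial markers ran from 27493 to 37195 and from 26901 to 36374 CPM (median -0.14), and the 5 fibroblast markers from 38619 to 108972 and from 52522 to 132803 CPM (median 0.39). The 6 leukocyte markers ran from 1938 to 2194 and from 1915 to 2036 CPM (median -0.17). Of 4 erythroid markers 3 were tested, with sums of 13759 to 33016 and 11532 to 25240 CPM (median -0.49). The 4th, miR-451a, had no row under that name among the deposited counts. In control means miR-486a-5p gave 23545 of the 24266 CPM of the erythroid sum, so the sum mostly reads that 1 miRNA. The fibroblast sum mostly reads miR-21a-5p, at 52572 of 67111 CPM in control means and 77287 of 96352 CPM in knockout means. The other fibroblast markers were the arms of miR-199a and miR-214, so the 5 are not separate readings. Counts of miR-199a-3p cannot be told apart from those of miR-199b-3p. In each of these lists 0 members passed and the ranges of the groups overlapped. In edgeR's test 2 of 6 cardiomyocyte markers, miR-133a-3p and miR-133b-3p, had an unadjusted p under 0.05, and both were lower in knockouts. Of the endothelial, fibroblast, leukocyte and erythroid markers 0 did, beside 6.35% of all tested miRNAs. Means were lower in knockouts for 5 of 6 cardiomyocyte, 4 of 5 endothelial, 0 of 5 fibroblast, 4 of 6 leukocyte and 3 of 3 erythroid markers. Over all tested miRNAs this share was 46.8%. The part of these cell types in the cluster's levels was not tested. The most abundant marker of each type was miR-1a-3p (351241 ± 122216 and 299919 ± 77136 CPM), miR-126a-3p (22874 ± 2497 and 20703 ± 2610 CPM), miR-21a-5p, miR-155-5p (594 ± 79.8 and 566 ± 61.2 CPM) and miR-486a-5p (23545 ± 7516 and 16713 ± 5244 CPM), whose counts cannot be told apart from those of miR-486b-5p.

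**Figure D5:**
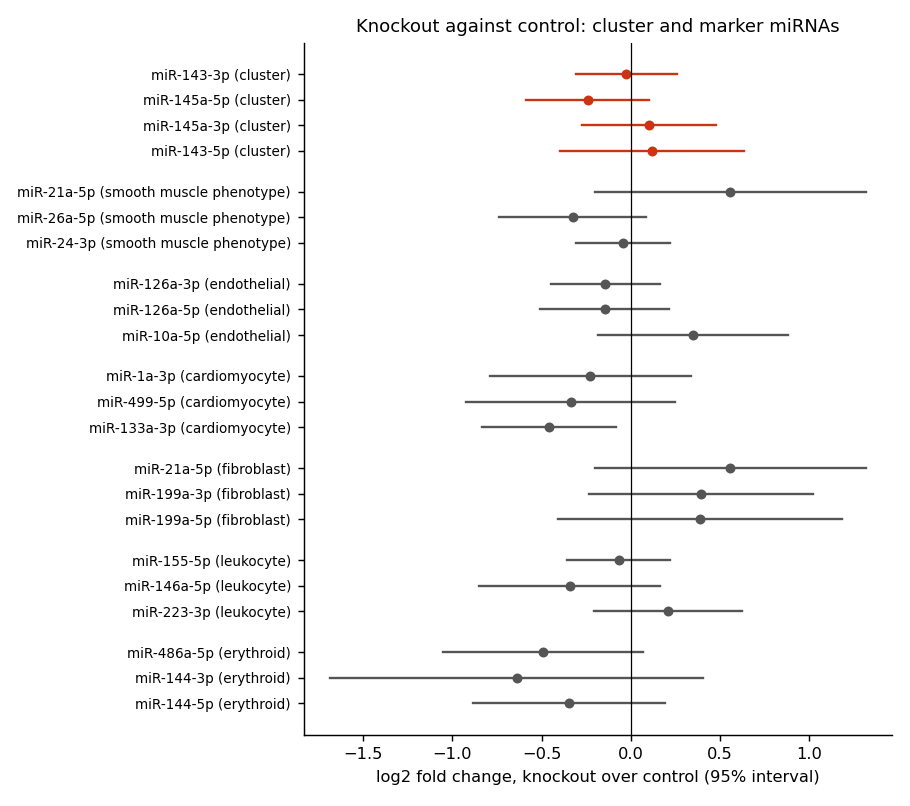
Log2 fold change of knockout over control (x axis) with its 95% interval for the 4 cluster members (red) and up to 3 most abundant members of each marker list (grey). The interval of each cluster member spans 0, and that of miR-143-3p, from -0.31 to 0.26, is the narrowest of the 4.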

How the data were processed

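The 10 small RNA libraries of heart were analysed, grouped by the genotype in their titles. The authors deposited raw read counts per mature miRNA, and a second table of linear signal, which equals each count divided by 1 factor per library (the DESeq2 size factor computed here). Named without a role in the submitters' processing notes are GRCm38, DESeq2, STAR, Bowtie and cutadapt 1.10. Which miRNA annotation was used and how reads with several matches were treated is not given in the sources used here. Because the labels do not tie libraries to animals, the spread behind the p-values may be technical.

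Counts were filtered with filterByExpr (457 of 1139 rows kept) and tested with edgeR 4.0.16 (quasi-likelihood, TMM factors, genotype as the only term, Benjamini-Hochberg over 457 miRNAs, threshold 0.05) in R 4.3.3. Standard errors were derived from the F statistic, and the prior count for log2 CPM was 2. Log2 ratios had 0.5 counts added on both sides and were compared by exact two-sided permutation of libraries. Correlations used 100000 permutations. Library totals ran from 7526091 to 18369483 counts, and a count of 0 would allow 0.399 CPM (3 counts) in the shallowest, before TMM scaling. Both test procedures were tested on simulated data. Alternatives were DESeq2 1.42.0, limma 3.58.1 on log2(deposited signal + 1), library totals only, other low-count filters (none, or at least 10 CPM in 5 libraries), other pseudocounts or denominators, a replicate block, and leaving out each library.

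The members and lists were chosen with earlier results of these data known, so no list is independent evidence. Named miRNAs were the members, the 5 most alike to each guide, and up to 3 most abundant members of each list. miR-221-3p and miR-222-3p were named outside that rule, after their values were seen. The part of the rule on shared seeds with the members was not applied. Of 457 tested miRNAs, 390 matched a RefSeq mature sequence by name. The replicate numbers 1 to 5 occur in both groups, but the labels do not say what they mark, so they were not taken to pair libraries.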

Additional observations from a re-analysis of the deposited data

Results flagged for a closer look

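A library was marked where its gap to the nearest of its group, divided by the range of the group, exceeded 0.71, Dixon's 95% critical value for 5 samples. The 4 members, the other named miRNAs and the 6 within-library ratios or shares gave 37 values and 74 sets of 5 libraries. Of these, 6 were marked, where chance marks about 1 in 20, or 3.7. Among the members, miR-143-3p stood at 25640 CPM in knockout replicate 3 and at 30905 to 32415 CPM in the other knockouts (gap over range 0.777). Knockout replicate 4 had a log2 ratio of miR-145a-5p to miR-145a-3p of 1.17 against 0.69 to 0.75 (0.874). Control replicate 3 had a log2 ratio of miR-145a-5p to miR-126a-3p of -4.69 against -5.77 to -5.49 (0.737). The remaining 3 concerned other named miRNAs. miR-19a-3p stood at 56.2 CPM in control replicate 3 and at 24.4 to 32.9 CPM in the others (0.730). In knockout replicate 4, miR-22-3p stood at 6183 CPM, with 3581 to 4278 CPM in the others (0.732), and the cardiomyocyte miRNA miR-499-5p at 3815 CPM, with 1820 to 2396 CPM in the others (0.711).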

How the results depend on the processing

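Of 158 alternative values for the count of miRNAs past the threshold, the 4 members and the 6 within-library measures, 151 kept direction and side of the threshold, 7 turned in direction and 0 passed. The smallest adjusted p among them was 0.29. The log2 fold change of miR-143-3p was 0.10 with library totals only and 0.010 without a low-count filter, and -0.052 to 0.052 with 1 library left out. That scaling by totals shifted the median over all miRNAs from 0.03 to 0.14, and miR-143-3p was below the median under both. miR-143-5p ran from 0.01 to 0.29, miR-145a-5p from -0.30 to -0.06 and miR-145a-3p from -0.0029 to 0.21 with 1 library left out. The log2 ratio of miR-145a-5p to miR-126a-3p ran from -0.16 to 0.11, the last without control replicate 3. With the replicate block the members were at -0.03, 0.11, -0.22 and 0.13 in the order miR-143-3p, miR-143-5p, miR-145a-5p and miR-145a-3p, with 0 miRNAs past the threshold and 72 of 457 at an unadjusted p under 0.05 in edgeR, so the block changed no call. Deviations from the group means had correlations of -0.12 to 0.45 between libraries of the same number. For 4 of 10 libraries the closest one of the other group bore its own number. Each library had 5 candidates there, 1 of them with its own number. Whether the numbers pair libraries cannot be settled from these values. The count at an unadjusted p under 0.05, 29 of 457 in the reported fit, was 102 of 1105 without a filter, 16 of 282 with the stricter filter, 45 of 1105 with DESeq2, 14 of 457 with library totals only, and 6 to 84 with 1 library left out.

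The other scalings for correlations and for ranks by spread were chosen after seeing the data. The correlation of miR-143-3p with miR-145a-3p turned from -0.26 to 0.53 with library totals only. That of miR-143-5p with miR-145a-3p turned from -0.22 to 0.28 with library totals only and to 0.033 without the 2 libraries farthest from the median. For the arms of miR-145a, r turned from 0.02 to -0.19 without the 2 farthest libraries and to -0.0012 in the deposited normalized values. The causes were not tested. Depth limits miR-143-5p most, at 94 to 211 counts in a library.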
